A study of Homo sapiens with 6 samples.

Results

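The genes described here are HDAC6, also called KDAC6, the stated target of the compounds under test, its class IIb relative HDAC10, the class I enzymes HDAC1, HDAC2, HDAC3 and HDAC8, and HDAC11, the class IV enzyme. They were taken as the rows of the deposited table whose gene name equals a member's symbol, which gave 7 of 60675 gene rows, and all 7 had enough reads to be tested. The study asked how selective inhibitors of HDAC6 are. HT1080, a long-established line grown from a human fibrosarcoma and labelled wild type, was given SW-138 or SW-113 at 1 µM for 48 h, added when the cultures were partly confluent. There were 3 libraries of rRNA-depleted total RNA per compound, and no vehicle group is used here, so each value says how the compounds differ and not what either did to untreated cells. The labels do not say whether replicates were separate cultures, so the spread between them may be technical.

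Lysine deacetylases remove acetyl groups from lysine side chains. The class I, IIb and IV enzymes do so with a zinc ion held in the active site, which most inhibitors of these enzymes bind. HDAC1, HDAC2 and HDAC3 work on chromatin as subunits of corepressor complexes. HDAC8 acts outside such complexes and releases acetyl groups from the cohesin subunit SMC3. HDAC6 is mainly cytoplasmic, carries tandem catalytic domains and a ubiquitin-binding zinc finger, and acts on tubulin, HSP90 and cortactin. HDAC10 acts on acetylated polyamines, and HDAC11 removes long fatty acyl groups from lysine. These inhibitors act on the proteins, and the libraries measure the mRNAs, which need not move when an enzyme is blocked.

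A stretch of the coding sequence that holds an aspartate and a histidine among the zinc ligands is shown for each gene. It shows what the members have in common and how they differ. Each sequence is the coding strand, 5′ to 3′, of the GENCODE 29 transcript with the longest coding sequence on GRCh38, and capitals mark the codons of an aspartate and a histidine that bind the catalytic zinc. HDAC6 appears once for each catalytic domain.
HDAC6 domain 1: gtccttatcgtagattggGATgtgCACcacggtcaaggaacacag
HDAC6 domain 2: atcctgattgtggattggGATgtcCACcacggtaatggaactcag
HDAC10: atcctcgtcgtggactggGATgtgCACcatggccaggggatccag
HDAC1: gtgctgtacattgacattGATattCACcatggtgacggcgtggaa
HDAC2: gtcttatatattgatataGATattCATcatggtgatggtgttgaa
HDAC3: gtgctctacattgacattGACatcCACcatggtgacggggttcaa
HDAC8: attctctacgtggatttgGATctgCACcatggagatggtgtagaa
HDAC11: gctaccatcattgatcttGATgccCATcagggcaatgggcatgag

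These stretches lie at chrX:48808259-48808303 and chrX:48818042-48818086 for HDAC6 (plus strand), at chr22:50249658-50249702 for HDAC10 (minus strand) and at chr1:32327549-32327593 for HDAC1 (plus strand). HDAC2 has it at chr6:113953361-113953405 and HDAC3 at chr5:141629249-141629293, both on the minus strand. The stretches of HDAC8 (chrX:72490999-72495192, minus strand) and HDAC11 (chr3:13501904-13502898, plus strand) cross an exon junction. Of the 45 bases, 37 were the same in both domains of HDAC6 and 33 in HDAC10 and domain 2 of HDAC6. HDAC1, HDAC2, HDAC3, HDAC8 and HDAC11 shared 23, 25, 24, 28 and 25 bases with domain 2. The marked codons are numbers 253 and 255 in domain 1 and 649 and 651 in domain 2, of 1215 codons in HDAC6. In HDAC1, which has 482 codons, they are codons 176 and 178.

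Reads of 150 bases can be told apart between the members. The longest identical run between any pair of coding sequences was 18 bases, shared by HDAC1 and HDAC3. The next longest, of 17 bases, were shared by HDAC6 with HDAC10 and by HDAC1 with HDAC2. These runs are shown because they bound what the coding sequences of these transcripts have in common. Untranslated parts and other transcripts were not compared in this way.
HDAC1 and HDAC3: TGCTGGACATATGAGACA
HDAC6 and HDAC10: TTTGAGGATGACCCCAG
HDAC1 and HDAC2: AAGCAGATGCAGAGATT

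In the transcript with the longest coding sequence, windows of 150 bases were shared with other genes for 2 members. Of the 150-base windows of the HDAC10 transcript, 59.7% (1515 of 2538) also lie, on the same strand, in transcripts annotated for MAPK12, the gene of a p38 kinase that overlaps HDAC10. Of those of the HDAC8 transcript, 70.7% lie in AL133500.1, an annotated protein-coding gene that overlaps HDAC8 on the same strand and is not analysed here. For the other 5 members 0 windows were shared with another gene. Other transcripts of the members were not scanned. Over all annotated exons, HDAC3, HDAC11 and HDAC2 overlap antisense genes by 426, 330 and 69 bases. The estimated counts of HDAC10 and of MAPK12 were not whole in any library, and neither was their sum, so sharing between these 2 rows alone does not account for the fractions. Over all tested genes, 57.2% were whole in every library. The counts of HDAC6, HDAC1, HDAC2, HDAC8 and HDAC11 were whole in all 6, to within 0.005. HDAC3 was whole in all but SW-138 replicate 1, where 1394.71 counts stood beside 3.29 counts of AC008781.7, an antisense gene, and the sum was 1398.

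The libraries held 32771670 to 50871623 estimated counts. The RNA makeup differed between the compounds: the signal recognition particle RNA RN7SL1 took 2.14% to 2.88% of counts with SW-138 and 3.72% to 4.40% with SW-113. The cell type label was checked against markers. VIM, FN1 and CD44 were abundant, with SW-138 means of 3763, 1316 and 1492 CPM (counts per 1000000, on library totals scaled by TMM), against 3465, 1129 and 1550 CPM for SW-113. TWIST1, a mesenchymal transcription factor, was the marker that passed the test, lower at 7.501 ± 0.0825 CPM in SW-138 against 10.06 ± 0.359 CPM in SW-113 (SD, n = 3 each; edgeR adjusted p = 0.0126), and it did not pass without SW-113 replicate 3 (adjusted p = 0.0703). Its part in the other results was not tested. COL1A1 reached at most 1.39 CPM, COL1A2 at most 0.197 CPM, THY1 at most 0.109 CPM and COL3A1 at most 0.0260 CPM in any library, and 5 of 10 mesenchymal and fibroblast markers reached a mean of 1 CPM. The 4 epithelial markers summed to at most 0.0543 CPM in SW-138 libraries and 0.0605 CPM in SW-113 libraries. The endothelial markers summed to at most 0.543 CPM in SW-138 libraries and 0.520 CPM in SW-113 libraries. Of the immune markers, PTPRC and CD3E reached at most 0.0296 and 0.0737 CPM in any library, and CD68, a lysosomal gene, averaged 85.2 CPM in SW-138 against 91.7 CPM in SW-113.

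The compounds were not shown to differ in the mRNA level of any of the 7 genes. By the quasi-likelihood test of edgeR, with p-values adjusted after Benjamini and Hochberg across the 16905 genes with enough reads and a threshold of 0.05, 0 of 7 were higher in SW-138 and 0 of 7 were lower. In the background of all tested genes 6.82% were called, 2.76% higher (466 genes) and 4.06% lower (687 genes). With scaling by total count alone the same split was 923 higher and 377 lower. DESeq2 and limma-voom also called 0 of the 7. At an unadjusted p under 0.05 there was 1 member, HDAC10, where 22.3% of all tested genes passed. In 0 of 7 were the CPM ranges of the compounds apart, where 27.9% of tested genes had ranges that did not overlap. The 7 log2 fold changes (SW-138 minus SW-113) had a median of -0.05 beside 0.0074 over all tested genes, with 3 estimates above 0 and 4 below, of which HDAC1 (0.0002) and HDAC8 (0.0105) lay above 0 with scaling by total count alone.

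**Figure D1:**
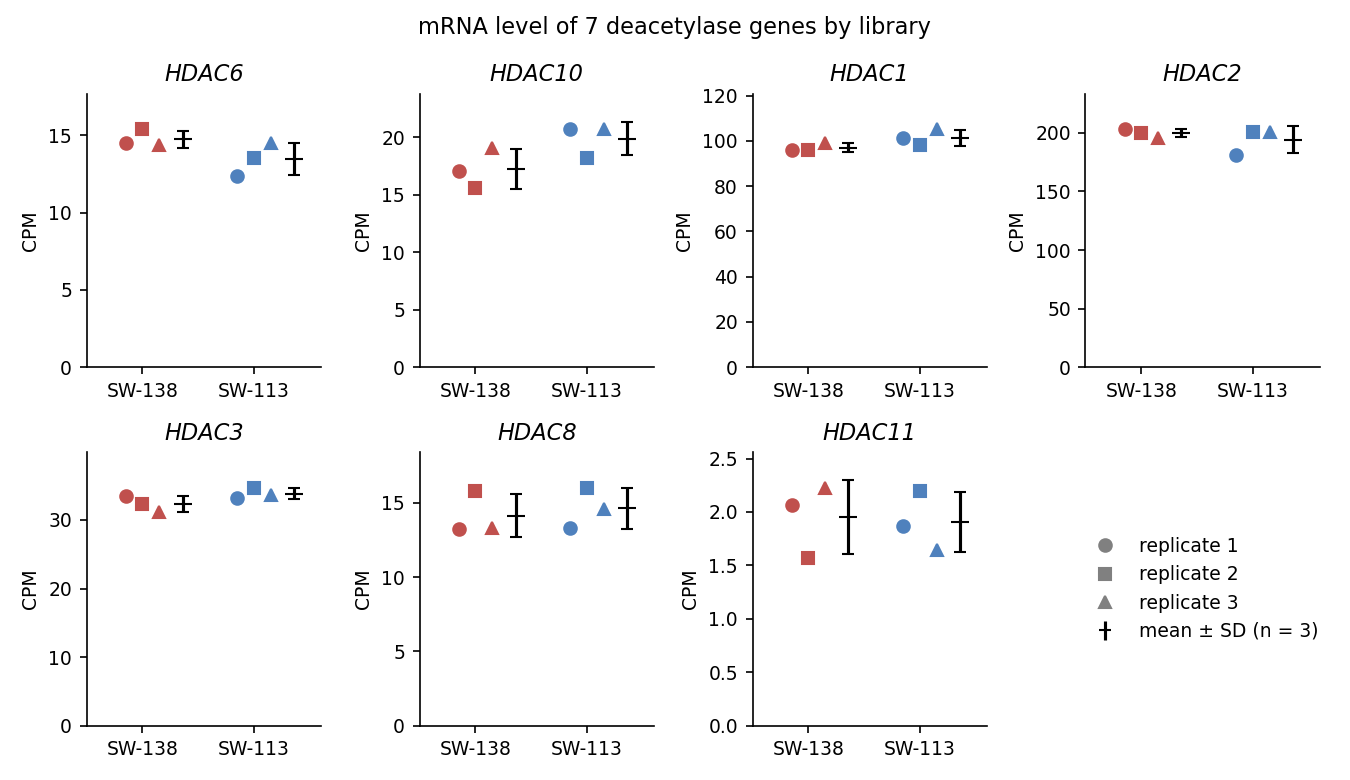
CPM of each gene in each library (vertical axes start at 0 and differ between panels), with SW-138 in red and SW-113 in blue, marker shape giving the replicate and black bars the mean ± SD of 3 libraries. In every panel the ranges of the compounds overlap, and levels run from about 2 CPM for HDAC11 to 203 CPM in the highest HDAC2 library.

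HDAC6, at GRCh38 chrX:48801377-48824982, was at 14.5, 15.4 and 14.3 CPM in SW-138 replicates 1, 2 and 3, against 12.4, 13.5 and 14.5 CPM in SW-113 replicates 1, 2 and 3. The lowest library of all was SW-113 replicate 1 and the highest SW-138 replicate 2, and the ranges met at SW-113 replicate 3, which lay above SW-138 replicate 3. On the log2 scale the difference was 0.13 ± 0.08 (SE), and its 95% interval ran from -0.05 to 0.31 (edgeR, Benjamini-Hochberg adjusted p = 0.374). As a ratio, the interval ran from 0.967 to 1.24, so larger differences in either direction lie outside it. The libraries held 477 to 671 counts of HDAC6, for which counting alone gives a coefficient of variation of 4.21%, beside a measured 3.85% in SW-138 and 7.75% in SW-113.

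HDAC10, at chr22:50245183-50251405, encodes the class IIb enzyme of acetylated polyamines. It was at 17.02, 15.6 and 19.1 CPM in SW-138 replicates 1, 2 and 3, against 20.7, 18.2 and 20.7 CPM in SW-113 replicates 1, 2 and 3. SW-138 replicates 1 and 2 lay below all SW-113 libraries, and SW-138 replicate 3 lay above SW-113 replicate 2. Its log2 fold change of -0.20 ± 0.09 (SE) was the largest of the 7 in size, with a 95% interval of -0.40 to -0.01 before any adjustment. The unadjusted p was 0.0428 and the edgeR p after Benjamini-Hochberg adjustment 0.208. It ranged from 0.0655 to 0.456 over the alternative fits, with the estimate below 0 in each. MAPK12, with which its transcript shares sequence, was at 39.5, 37.5 and 42.4 CPM in SW-138 replicates 1, 2 and 3 and at 44.9, 45.95 and 40.3 CPM in SW-113. Its log2 fold change was -0.14 ± 0.07 (edgeR, Benjamini-Hochberg adjusted p = 0.273). With both rows summed, a step chosen after seeing the data, the difference was -0.16 ± 0.06 (adjusted p = 0.17, edgeR). How reads were divided between these genes, and its part in the HDAC10 value, was not tested.

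**Figure D2:**
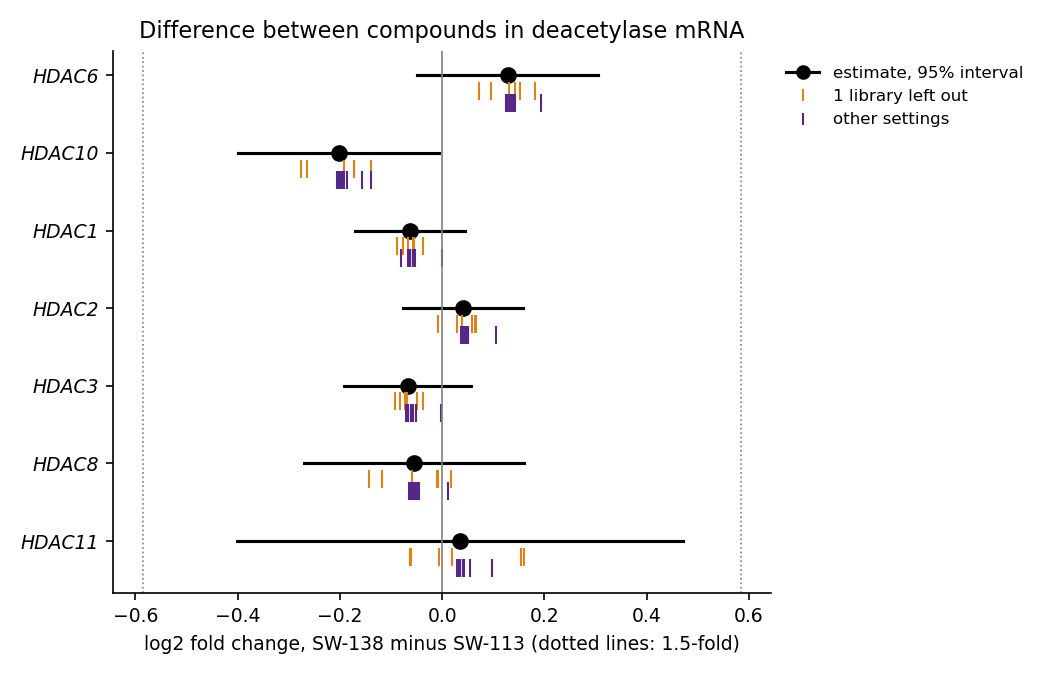
Log2 fold change of each gene (horizontal axis, SW-138 minus SW-113). Black points and lines give the edgeR estimate with its 95% interval, orange ticks the fits with 1 library left out and purple ticks the other settings, with dotted lines at 1.5-fold. All 7 intervals lie within 1.5-fold either way, the widest being that of HDAC11 and the narrowest that of HDAC1.

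HDAC1 and HDAC2, closely related class I enzymes that sit together in the NuRD, SIN3 and CoREST complexes, had the most reads. HDAC1 (chr1:32292086-32333635) was at 95.9, 95.95 and 99.3 CPM in SW-138 replicates 1, 2 and 3, against 101, 98.02 and 105 CPM in SW-113. SW-138 replicates 1 and 2 lay below all SW-113 libraries, and replicate 3 lay above SW-113 replicate 2. The estimate on the log2 scale was -0.06 ± 0.05 (SE), and its interval ran from -0.17 to 0.04 (edgeR, Benjamini-Hochberg adjusted p = 0.491). HDAC2 (chr6:113933028-114011308) was at 203, 199.9 and 196 CPM in SW-138, against 181, 200.6 and 201 CPM in SW-113. SW-113 replicate 1 stood below the other 5 libraries, which ran from 196 to 203 CPM. Its log2 fold change was 0.04 ± 0.05, with an interval of -0.08 to 0.16 (edgeR, adjusted p = 0.713). Without SW-113 replicate 1 it was -0.0088.

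HDAC3, the catalytic subunit of the NCOR and SMRT complexes, lies at chr5:141620876-141636870. It was at 33.4, 32.3 and 31.2 CPM in SW-138 replicates 1, 2 and 3, against 33.2, 34.7 and 33.7 CPM in SW-113. SW-138 replicates 2 and 3 lay below all SW-113 libraries and replicate 1 lay among them. On the log2 scale the difference was -0.07 ± 0.06 (SE; interval -0.19 to 0.06) (edgeR, adjusted p = 0.515). HDAC8, at chrX:72329516-72573199, was at 13.3, 15.8 and 13.3 CPM in SW-138, against 13.3, 16.03 and 14.6 CPM in SW-113. Under both compounds replicate 2 was the highest. Its log2 fold change was -0.05 ± 0.10, with an interval of -0.27 to 0.16 (edgeR, adjusted p = 0.786).

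HDAC11, at chr3:13479724-13506424, had the fewest reads, 53 to 109 counts in a library. It was at 2.06, 1.57 and 2.23 CPM in SW-138 replicates 1, 2 and 3, against 1.87, 2.20 and 1.65 CPM in SW-113. The lowest and the highest library were both SW-138 libraries. The log2 fold change was 0.03 ± 0.20 (SE; edgeR, adjusted p = 0.94). Its interval, -0.40 to 0.47 on the log2 scale, corresponds to ratios of 0.757 to 1.39 and is the widest of the 7. Counting alone gives a coefficient of variation of 11.3% here, beside a measured 17.6% in SW-138 and 14.5% in SW-113. In HDAC2, the deepest of the 7, counting gives 1.12%, beside 1.78% in SW-138 and 5.90% in SW-113.

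Levels can be compared between genes only per length. In CPM per kilobase of annotated exon (the union of all exons of a gene), HDAC1 came first at 25.04, with a range over the 6 libraries of 24.2 to 26.6. HDAC2 followed at 12.7, HDAC3 at 7.14, HDAC10 at 3.74, HDAC6 at 1.33, HDAC8 at 0.626 and HDAC11 at 0.365. In this order no neighbours' ranges over the libraries overlapped. The HDAC10 transcript shares sequence with MAPK12, and how reads were divided between these genes was not tested. By compound, HDAC6 was at 1.39 ± 0.0536 in SW-138 and 1.27 ± 0.0984 in SW-113 (SD, n = 3 each), and HDAC1 at 24.5 ± 0.494 in SW-138 and 25.6 ± 0.910 in SW-113.

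The order depended on the length used. HDAC1, HDAC2 and HDAC3 held the first 3 places and HDAC11 the last with each of 4 lengths. With the mean length of coding transcripts HDAC2 (124.8) lay above HDAC1 (71.2), because the annotated exons of HDAC2 add up to 15461 bases and its coding transcripts to 1578.4 on average. The places of HDAC10, HDAC6 and HDAC8 changed with the length: with that mean, they were at 7.91, 8.19 and 7.88 and their ranges overlapped. With the transcript that has the longest coding sequence, HDAC8 lay at 8.85, above HDAC10 at 6.90 and HDAC6 at 3.36. The exon union of HDAC8 is 22986 bases, over 60 annotated transcripts. Which transcripts HT1080 cells make was not measured.

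**Figure D3:**
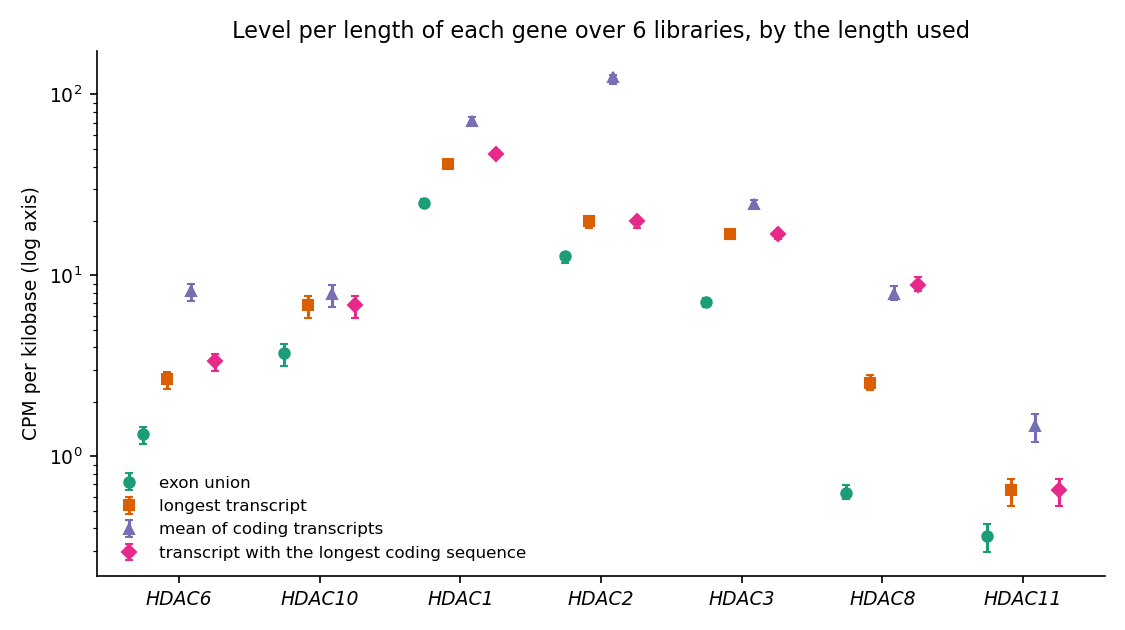
Level of each gene in CPM per kilobase (log axis), as the mean over 6 libraries with bars from the lowest to the highest library, for 4 ways to set the length of a gene. HDAC1, HDAC2 and HDAC3 are above the other genes with every length, HDAC11 is below them, and HDAC8 moves from 0.626 with the exon union to 8.85 with the transcript of the longest coding sequence.

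Ratios of counts within a library do not depend on scaling between libraries. Of the 21 pairs of members, 4 (19.0%) had ranges of the ratio that did not overlap between the compounds, and 3 of these 4 share HDAC6. Among all pairs of tested genes with reads in every library, 25.1% did not overlap, so the members' share is no higher than the background and nothing particular to the family is read from it. The 3 pairs with HDAC6 reuse the same HDAC6 counts, so they are not separate observations. No background was computed for pairs that share a gene. The ratios are a description with no test. The ratio of HDAC6 to HDAC10 was 0.851, 0.988 and 0.752 in SW-138 replicates 1, 2 and 3, against 0.599, 0.744 and 0.700 in SW-113. Every SW-138 library lay above every SW-113 library, the nearest being SW-138 replicate 3 and SW-113 replicate 2. The HDAC10 counts were not whole in any library, and its transcript shares sequence with MAPK12, whose part in this ratio was not tested. The ratio of HDAC6 to HDAC1 was 0.151, 0.160 and 0.144 in SW-138, against 0.123, 0.138 and 0.138 in SW-113. HDAC6 to HDAC3 ran from 0.433 to 0.477 in SW-138 and from 0.374 to 0.430 in SW-113. HDAC2 to HDAC3 ran from 6.08 to 6.29 in SW-138 and from 5.45 to 5.97 in SW-113. The ratio of HDAC2 to HDAC1, the partners in the same complexes, was 2.06 ± 0.0751 in SW-138 and 1.92 ± 0.128 in SW-113 (SD, n = 3 each), and its ranges overlapped.

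**Figure D4:**
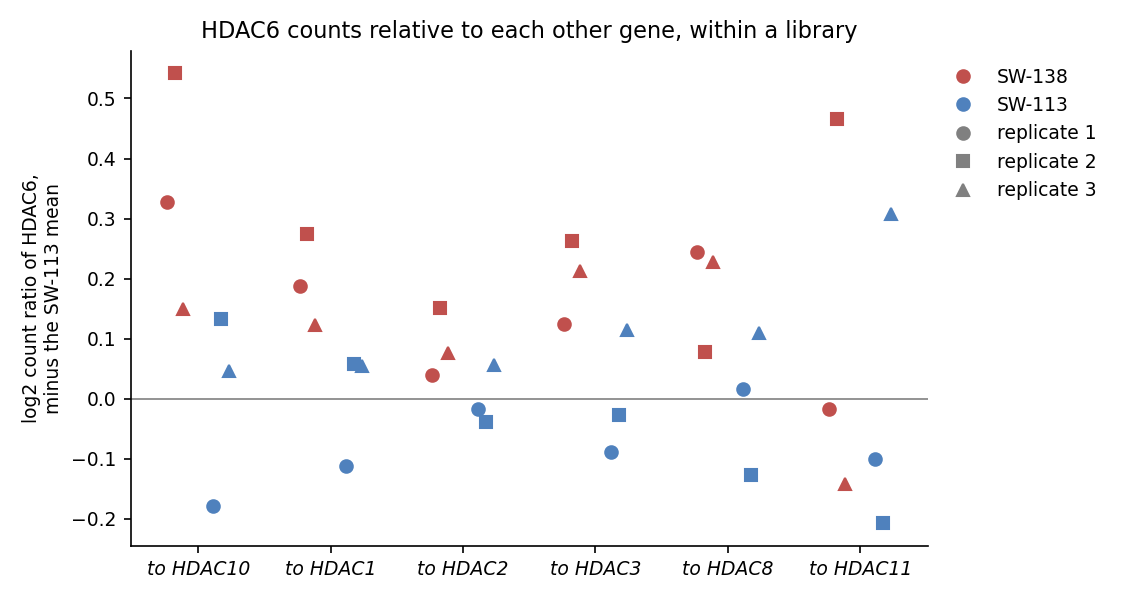
Log2 ratio of HDAC6 counts to the counts of each other gene within a library, less the mean of the 3 SW-113 libraries, with SW-138 in red left of SW-113 in blue and marker shape giving the replicate. SW-138 libraries lie above all SW-113 libraries for HDAC10, HDAC1 and HDAC3, and the compounds overlap for HDAC2, HDAC8 and HDAC11.

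The genes whose profile over the 6 libraries lay nearest to that of HDAC6 were VRK1, MBLAC2, SMC6, RECQL and ETNK1. The measure was the root mean square difference of log2 CPM centred on each gene's mean, which was 0.0241 to 0.0251 for these 5 among 10896 genes with a mean of at least 5 CPM, where the median was 0.136. Their log2 fold changes ran from 0.12 to 0.14, and 0 of the 5 passed the test. They were picked for closeness to HDAC6 over these same libraries, so fold changes near its own follow from the choice. HDAC2 was the member nearest to HDAC6, at 0.0625 with 343 genes nearer, and HDAC10 was the farthest of those compared, at 0.224 with 9694 genes nearer. HDAC11 was below the limit of 5 CPM. These are likenesses over 6 libraries that share their scaling, and they say nothing of shared control.

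Among the other deacetylases, the class IIa genes HDAC5 (0.67 ± 0.06, SE) and HDAC9 (0.48 ± 0.07) were higher in SW-138, and HDAC4 (0.05 ± 0.07) and HDAC7 (0.06 ± 0.05) did not pass (edgeR, Benjamini-Hochberg adjusted p = 0.000445, 0.00388, 0.717 and 0.501). HDAC4 and HDAC7 are named outside the naming rule, to complete the class, after their values were seen. HDAC5 was at 84.3 ± 2.79 CPM in SW-138 and 53.03 ± 2.92 CPM in SW-113 (SD, n = 3). Over all tested genes 6.82% were called. Of the sirtuins, the NAD-dependent deacetylases, 0 of 6 tested were higher and 0 lower, with a median log2 fold change of -0.13. The smallest p among them was that of SIRT2, which also acts on tubulin, at -0.15 ± 0.07 (edgeR adjusted p = 0.24).

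For the subunits that HDAC1, HDAC2 and HDAC3 work with, the calls stand beside the 6.82% called over all tested genes. In the list of 34 genes of HDAC1 and HDAC2 complexes 0 were higher and 1 was lower, with a median log2 fold change of -0.04. The lower gene was MTA1, a NuRD subunit, at 124 ± 4.40 CPM in SW-138 and 141 ± 1.97 CPM in SW-113 (-0.19 ± 0.05, SE; edgeR adjusted p = 0.0476). That call was lost in all 6 fits that left out a library, where the adjusted p ran from 0.0857 to 0.175, and with DESeq2 size factors or total count alone. Of 5 genes of the HDAC3 complex, 0 were higher and 1 was lower, GPS2, at 37.5 ± 1.43 CPM in SW-138 and 45.96 ± 1.37 CPM in SW-113 (-0.29 ± 0.06; edgeR adjusted p = 0.0124). Without SW-113 replicate 2 or 3 it did not pass (adjusted p up to 0.0686), and its counts were not whole in any library.

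Genes of the pathways in which HDAC8, HDAC10, HDAC11 and HDAC6 act are given next, beside the 6.82% called over all tested genes. Of 13 genes of the cohesin cycle, the setting of HDAC8, 0 were higher and 0 lower, with a median of 0.06. SMC3, whose acetyl groups HDAC8 removes, had the smallest p, at 0.16 ± 0.06 (SE; edgeR adjusted p = 0.157). Of 12 genes of polyamine metabolism, 1 was higher and 1 was lower, with a median of -0.04. SMOX, which oxidises spermine, was at 96.5 ± 4.14 CPM in SW-138 and 74.6 ± 2.43 CPM in SW-113 (0.37 ± 0.05; edgeR adjusted p = 0.00434), and its call held in all 6 fits without a library. SRM, spermidine synthase, was at 94.8 ± 2.52 CPM in SW-138 and 118 ± 5.99 CPM in SW-113 (-0.31 ± 0.05; edgeR adjusted p = 0.00894), and without SW-113 replicate 3 the adjusted p was 0.0576. SHMT2, a serine metabolism enzyme from which HDAC11 removes acyl groups, was at 0.20 ± 0.06 and did not pass (edgeR adjusted p = 0.0769). It was called in 6 of 18 alternative fits.

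Of 14 HDAC6 substrates and genes of tubulin acetylation, 0 were higher and 3 were lower in SW-138, with a median of -0.08. Among all tested genes 2.76% were called higher and 4.06% lower. The tubulin gene TUBA1A was at 26.2 ± 1.04 CPM in SW-138 and 33.0 ± 1.55 CPM in SW-113 (-0.33 ± 0.06, SE; edgeR adjusted p = 0.0116), and its call was lost without SW-113 replicate 3 (adjusted p = 0.0684). Its reads can be shared with other alpha tubulin genes, and its counts were not whole in any library. The peroxide-reducing enzymes PRDX1 (-0.25 ± 0.05; adjusted p = 0.0222) and PRDX2 (-0.23 ± 0.06; adjusted p = 0.0356, edgeR) were also lower. Either call was lost with scaling by total count alone and in 5 of 6 fits that left out a library, all but that without SW-138 replicate 2. The counts of PRDX1 were not whole in any library, and those of PRDX2 were whole in all 6. In a bulk culture, fewer cells with an mRNA and less of it per cell cannot be told apart.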

How the data were processed

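Expected counts per gene were used as the authors deposited them, 1 column per library, and they are not scaled between libraries. The tools listed in the submitters' processing notes, without role or order, are RSEM 1.3.3, Bowtie2 2.5.4, DESeq2 1.42.0 and Trimmomatic 0.39, with the build GRCh38. Annotation, filters and strand setting are not given in the sources used here, so antisense overlaps may not be separated. Column names matched sample titles.

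Expected counts were rounded, filtered with edgeR 4.0.16 (filterByExpr) and scaled by TMM, and a quasi-likelihood test without a block term gave the difference of SW-138 from SW-113. P-values of the 16905 genes kept were adjusted after Benjamini and Hochberg, with a threshold of 0.05. Standard errors came from limma-voom 3.58.1, and 95% intervals were centred on the edgeR estimates. CPM used TMM-scaled totals. DESeq2 1.42.0 and limma-voom were alternatives, in R 4.3.3. Lengths, overlaps and transcript sequences came from GENCODE 29, which held 57055 of the 60675 table rows. The fit was tested on simulated data. The simulated libraries were independent, with no shared replicate effect, and no result here rests on them. Counting error is the limit given for single genes, and PCR copies are not independent molecules.

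Named were the 7 members, rows that overlap them or are named as their antisense RNA or pseudogene, up to 4 called genes per list (else that with the smallest p), the 5 profiles nearest to HDAC6 and the markers. Members and lists were chosen with earlier results of these data known. Protein sequences were not used here. Alternatives were other scalings, filters and tests, thinning, protein-coding genes alone, a replicate block, each library left out and other gene lengths.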

Additional observations from a re-analysis of the deposited data

How the results depend on the processing

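In the 18 alternative fits 0 of the 7 genes were called in any. The 125 estimates kept their direction in 118 cases and turned in 7, none of them past the threshold. The robust option of edgeR repeats the main estimates, so these could not turn. Summing HDAC10 and MAPK12 left the other members' estimates all but unchanged, and its HDAC10 value is that of the sum. HDAC6 stayed above 0 (0.07 to 0.19) and HDAC10 below 0 (-0.28 to -0.14) in every fit. With total count alone HDAC1 was at 0.0002 and HDAC8 at 0.0105. Leaving out each library gave -0.0088 to 0.0654 for HDAC2, -0.144 to 0.017 for HDAC8 and -0.0635 to 0.161 for HDAC11. HDAC11 had no value under the filter of 5 CPM on the mean, which removed it. Over all genes, 1153 were called, 2060 with genes kept at 1 count in 1 library, and 303 to 1616 without single libraries (530, 458 and 303 without SW-113 replicates 1, 2 and 3, and 509, 1616 and 605 without SW-138 replicates 1, 2 and 3). The 8 lists of other genes together held 3 to 9 called genes without single libraries. Correlations of deviations between same-numbered libraries were 0.0492, 0.206 and 0.0512 for replicates 1, 2 and 3. That of replicate 2 was the highest of all 9 pairs, and those of replicates 1 and 3 were not above 0.1. Between differently numbered libraries, SW-138 replicate 1 with SW-113 replicate 3 gave 0.0903 and SW-138 replicate 3 with SW-113 replicate 1 gave 0.0516. SW-138 replicate 2 gave -0.0839 and -0.119 with SW-113 replicates 1 and 3. SW-113 replicate 2 gave -0.142 and -0.104 with SW-138 replicates 1 and 3. Deviations were taken from each compound's mean, so the values of a library with the other compound's libraries are tied together. A high value for a library goes with lower values for its other pairs. The main test did not use the replicate number as a pairing, and whether same-numbered libraries belong together was not tested. The replicate block called 2363 genes over all, 0 of the 7 members and 12 list genes, and gave HDAC6 0.13 (adjusted p = 0.316, edgeR) and HDAC10 -0.21 (adjusted p = 0.0655). Levels in CPM per kilobase moved with the length used. With the longest transcript they were 2.69 for HDAC6, 6.90 for HDAC10, 41.2 for HDAC1, 19.95 for HDAC2, 16.9 for HDAC3, 2.53 for HDAC8 and 0.652 for HDAC11. With the mean of coding transcripts they were 8.19, 7.91, 71.2, 124.8, 24.9, 7.88 and 1.48 in the same gene order, and with the transcript of the longest coding sequence, added after seeing the data, 3.36, 6.90, 46.7, 19.95, 16.9, 8.85 and 0.652. HDAC11 has the fewest reads and the largest counting error.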

Other observations

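Antisense and pseudogene rows of the members had few reads. RP3-399L15.3, the identifier that GENCODE 29 names HDAC2-AS2, runs antisense to HDAC2 and shares 69 exonic bases with it. It was at 1.34, 1.12 and 1.17 CPM in SW-138 replicates 1, 2 and 3, against 0.961, 0.948 and 1.01 CPM in SW-113. The ranges of the compounds did not overlap, as in 27.9% of all tested genes. The log2 fold change of RP3-399L15.3, 0.32 ± 0.21 (SE), did not pass (edgeR, Benjamini-Hochberg adjusted p = 0.43). The HDAC1 pseudogene HDAC1P2 had 6, 3 and 7 counts in SW-138 and 2 in each SW-113 library, and HDAC1P1 had 6, 0 and 2 counts in SW-138 and 0, 2 and 2 in SW-113. HDAC11-AS1, which shares 330 bases with HDAC11 on the opposite strand, had 0 counts in every SW-138 library and 2 in SW-113 replicate 1 alone. These 3 rows were too low to test.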
